A study of Mus musculus with 12 samples.

Results

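The comparison described here is the genotype by tissue interaction in mouse skin: did a conditional knockout of Adam17 change a transcript by one factor in whole skin and by another in epidermis? For each gene the log2 fold change of knockout (KO) over wild type (WT) in epidermis was subtracted from that in whole skin, and the result is called the difference in what follows. A positive difference means that the KO to WT ratio was higher in skin than in epidermis, and a negative one that it was lower. The contrast uses all 12 of the 12 libraries and every gene, in 1 fit with 4 group means, and no measured value chose its libraries. The 36 gene lists used below were written with earlier results of these data known. The groups were Skin WT, Skin KO, Epidermis WT and Epidermis KO, with 3 poly(A) RNA libraries each, from C57BL/6 mice of 10 weeks. The KO mice carried floxed Adam17 alleles and a Sox9-Cre driver, a Cre recombinase made in Sox9-expressing cells such as those of the hair follicle lineage, so that Adam17 can stay intact in other cells. The labels call the controls wild type and name no Cre or floxed allele for them. Nothing in them tells whether replicate libraries stem from different animals, or whether skin and epidermis were taken from 1 animal. The p-values thus measure the spread between these libraries, which may be technical where libraries of a group share animals.

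ADAM17 is a membrane metalloprotease that cuts surface proteins free, among them ligands of the epidermal growth factor receptor (EGFR) and TNF. EGFR signals through the MAP kinase cascade to immediate early genes such as Fos and Junb, and restrains inflammation while it keeps keratinocytes dividing. The epidermis is the keratinocyte layer with its resident Langerhans cells and T cells, whereas whole skin adds dermis, vessels, nerves, fat and the thin muscle sheet under the fat. A ratio within whole skin is therefore set by more cell types than a ratio within epidermis.

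Libraries held 12208522 to 16743144 expected counts. Levels are given as CPM, the expected counts scaled to library size with TMM factors, which compare libraries for 1 gene and not genes with each other. Adam17 itself stood at 72.4, 96.4 and 94.2 CPM in WT skin against 41.7, 52.2 and 52.6 in KO skin, and 79.0, 86.5 and 79.5 in WT epidermis against 48.4, 58.1 and 47.4 in KO epidermis. Both KO groups lay below both WT groups without overlap, and the log2 fold changes of -0.84 in skin and -0.67 in epidermis gave a difference of -0.17 (SE 0.20, adjusted p = 0.566) that did not pass the test. Fibroblast markers summed to 1813 to 2448 CPM in Skin WT and 5.88 to 10.5 in Epidermis WT, and to 689 to 1596 in Skin KO and 59.9 to 112 in Epidermis KO. Keratinocyte markers were high in all 12 libraries, from 23483 to 92594 CPM. The epidermis libraries thus carried keratinocyte RNA with few fibroblast transcripts, and Epidermis KO carried more of these than Epidermis WT. Reads of Y-linked genes were 0 in all 6 WT libraries and ran from 0 (Skin KO 2) to 1781 (Epidermis KO 1) in the KO libraries. Xist, the X-inactivation RNA of female cells, had 660 to 3222 reads in the WT libraries. Skin KO 1 held 1728 Y-linked and 0 Xist reads, Epidermis KO 1 held 1781 and 0, and Skin KO 2 held 0 and 430. Skin KO 1 and Skin KO 2 therefore do not hold RNA of the same animals. Reads of both kinds were present in Skin KO 3 (1034 Y-linked and 319 Xist), Epidermis KO 2 (213 and 2511) and Epidermis KO 3 (679 and 2050). Male RNA was thus found in KO libraries alone, in shares that differed between them. The labels do not say whether a library pools animals, so the spread between these libraries may not be that between single mice. With the Y-linked share as a covariate the number of called differences was 2198 against 2539 as reported, and 174 against 383 for genes called in opposite directions. This covariate was above 0 in KO libraries only, so sex and genotype cannot be fully told apart here.

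Among 15394 genes tested, 2539 had a called difference, which is 16.5% (edgeR quasi-likelihood test, Benjamini-Hochberg adjusted p below 0.05). It was positive for 979 genes (6.36%) and negative for 1560 (10.1%), and 5135 genes had an unadjusted p below 0.05. The genotype effect itself was called for 7482 genes in skin (48.6%) and for 7367 in epidermis (47.9%). The median size of a called difference was 1.49 on the log2 scale, and 1781 were at least 2-fold, 496 of them positive and 1285 negative. The median over all genes tested was -0.081, close to 0. Opposite changes were found in 383 genes (2.49%), of which 86 (0.559%) rose in skin and fell in epidermis and 297 (1.93%) fell in skin and rose in epidermis. In 339 genes both effects were called in 1 direction with different size, in 902 only the skin effect was called, in 885 only the epidermis effect, and in 30 neither. Leaving out Skin WT 1 raised the number of called differences to 3940. It fell to 1393 without Skin KO 2, 1412 without Epidermis KO 2, 1436 without Skin WT 3 and 1581 without Epidermis WT 3, and no gene called in both fits had the other sign. Opposite changes numbered 255 without Skin KO 2, 248 without Epidermis KO 2 and 254 without Skin WT 3.

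**Figure D1:**
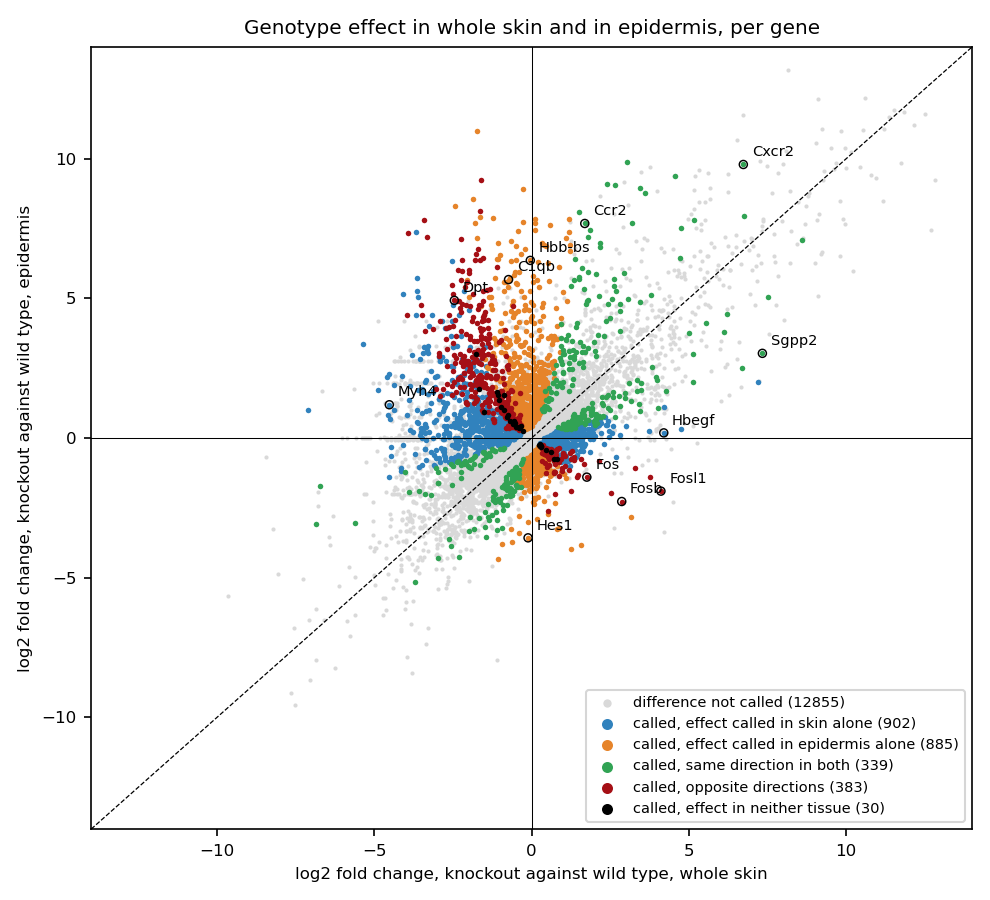
Log2 fold change of KO over WT in whole skin (x axis) against that in epidermis (y axis) for the 15394 genes tested, 1 point a gene, coloured by which effects were called; the dashed line marks equal effects. The 297 genes that fell in skin and rose in epidermis lie upper left and the 86 of the reverse kind, Fos, Fosb and Fosl1 among them, lower right.

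The same contrast can be read as the gap between the tissues within each genotype. Of the 1560 genes with a negative difference, 1501 were higher in WT skin than in WT epidermis and 1102 had their highest group mean in Skin WT. Of the 979 with a positive difference, 929 were higher in WT epidermis and 537 had their highest mean in Epidermis WT. Over all 15394 genes tested, 8109 were higher in WT skin and 7252 in WT epidermis. The highest group mean was in Skin WT for 4672 of all genes and in Epidermis WT for 4548. The gap was smaller in KO than in WT for 88.4% of the genes with a negative difference and 68.85% of those with a positive one, on the log2(CPM + 1) scale, beside 68.2% of all genes tested. These counts use the values that make up the difference, so they describe the called genes and are no test. Rank correlations across genes between skin and epidermis libraries ran from 0.832 to 0.891 in WT and from 0.924 to 0.951 in KO, given as a description because genes are not replicates.

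Immediate early genes, which growth factor and stress signals switch on within minutes, had a higher KO to WT ratio in skin than in epidermis in 13 of 18 members tested. No member had a called negative difference (all genes: 6.36% positive, 10.1% negative), and the median difference was 2.27 beside -0.081 over all genes. In skin 9 members rose (20.8% of all genes rose there) and none fell, and in epidermis 15 fell (23.2% of all genes) and none rose. Opposite changes were called in 8 members. The other members with a called difference changed in epidermis without a called change in skin. The promoters of Junb and Fos are shown because both genes rose in skin and fell in epidermis, and both hold the letters TATAAA, in capitals, as found on either strand (RefSeq, GRCm38.p6, 250 bases before to 50 after the annotated start, strand of the gene).

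Junb, chr8:84978699-84978998, minus strand: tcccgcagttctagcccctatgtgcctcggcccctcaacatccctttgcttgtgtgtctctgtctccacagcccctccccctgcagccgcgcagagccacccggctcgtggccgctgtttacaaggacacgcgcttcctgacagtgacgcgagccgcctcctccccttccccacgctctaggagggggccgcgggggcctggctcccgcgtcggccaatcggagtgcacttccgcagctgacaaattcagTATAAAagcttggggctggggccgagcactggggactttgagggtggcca
Fos, chr12:85473640-85473939, plus strand: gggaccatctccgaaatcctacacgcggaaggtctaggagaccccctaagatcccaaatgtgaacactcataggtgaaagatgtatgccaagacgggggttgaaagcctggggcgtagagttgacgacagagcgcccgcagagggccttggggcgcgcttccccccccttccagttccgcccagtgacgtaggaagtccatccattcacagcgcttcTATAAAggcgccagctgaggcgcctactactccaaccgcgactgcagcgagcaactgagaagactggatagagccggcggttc

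The letters TATAAA occurred in 2 of 6 matched promoters of genes named for rising in skin and falling in epidermis (33.3%), in 3 of 8 promoters of the 7 genes matched for the reverse (37.5%), and in 13.6% of the 32851 promoters of the table. The AP-1 letters TGANTCA occurred in none of these 6 or 8 and in 7.81% of all promoters. A match describes letters in this window and is not a measured site.

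Fos (chromosome 12, 85473890 to 85477273, GRCm38), a subunit of the transcription factor AP-1, stood at 34.6, 55.1 and 52.2 CPM in WT skin against 148, 153 and 179 in KO skin, and 2596, 2946 and 2384 in WT epidermis against 757, 1186 and 1061 in KO epidermis. Skin KO lay above Skin WT and Epidermis KO below Epidermis WT, without overlap, while both epidermis groups stayed far above both skin groups. Fos had log2 fold changes of 1.76 (SE 0.21, adjusted p = 6.42e-05) in skin and -1.40 (SE 0.21, adjusted p = 0.000269) in epidermis, a difference of 3.16 (SE 0.30, adjusted p = 0.000226). Fosb, another AP-1 subunit, measured 3.50, 4.39 and 3.53 CPM in WT skin against 18.0, 37.6 and 28.1 in KO skin, and 990.3, 1493 and 987 in WT epidermis against 150.5, 347 and 221 in KO epidermis. The order of the groups was that of Fos, with effects of 2.87 in skin and -2.27 in epidermis and a difference of 5.14 (SE 0.48, adjusted p = 0.000226). Junb (chromosome 8, 84974484 to 84978718, GRCm38), which pairs with Fos proteins in AP-1, was at 112, 119.6 and 99.4 CPM in WT skin against 251, 272 and 269 in KO skin, and 1458, 1847 and 1874 in WT epidermis against 415, 554 and 428 in KO epidermis. Its difference of 3.15 (SE 0.21, adjusted p = 0.000116) had the smallest adjusted p of all genes, with 1.26 in skin and -1.89 in epidermis. Fosl1, the AP-1 subunit also called Fra-1, was at 2.31, 0.732 and 1.09 CPM in WT skin against 10.4, 32.2 and 27.3 in KO skin, and 36.1, 77.2 and 83.0 in WT epidermis against 20.6, 22.2 and 9.90 in KO epidermis. Skin KO and Epidermis KO overlapped for Fosl1, whereas the WT groups were far apart, and the difference of 6.01 (SE 0.75, adjusted p = 0.00104) was the largest positive one of the genes named by size. Myc (chromosome 15, 61985391 to 61990374), a growth-promoting transcription factor, was at 41.1, 42.7 and 43.4 CPM in WT skin against 73.3, 77.2 and 82.3 in KO skin, and 147, 214 and 179.8 in WT epidermis against 66.1, 73.1 and 72.1 in KO epidermis, so that both KO groups lay between the WT groups (difference 2.23, SE 0.18, adjusted p = 0.000207).

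**Figure D2:**
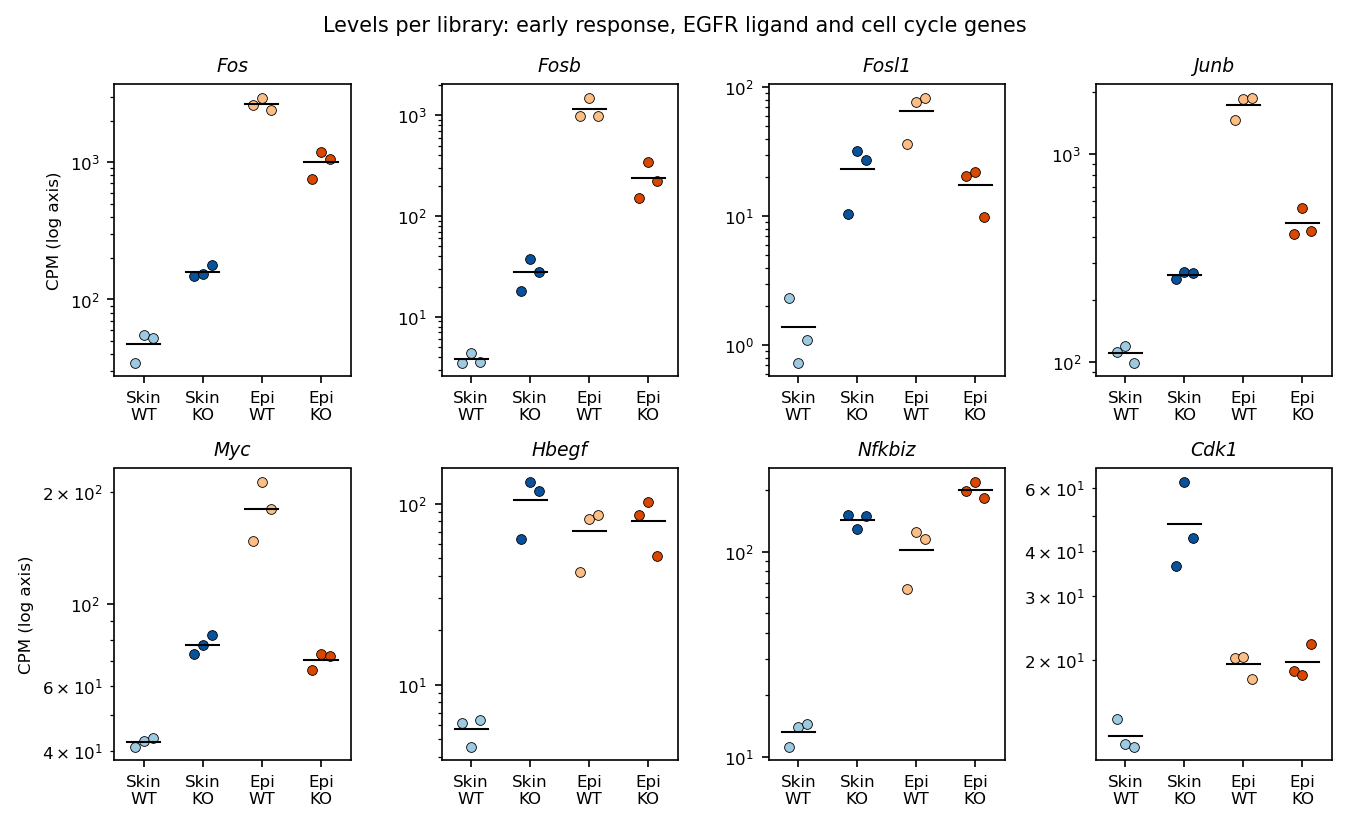
CPM of 8 genes in each of the 12 libraries on log axes, points are libraries and bars group means. For Fos, Fosb, Fosl1, Junb and Myc Skin KO lies above Skin WT and Epidermis KO below Epidermis WT, whereas Hbegf and Cdk1 separate only in skin.

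Further genes with opposite changes of this kind were Arc, an activity-regulated cytoskeletal protein, the nuclear receptor Nr4a3, the cytokine signalling inhibitor Socs3, Id1, an inhibitor of basic helix-loop-helix factors, the neuropeptide gene Calcb, and Acp7, an acid phosphatase. Arc was at 2.80, 2.93 and 2.55 CPM in WT skin against 14.0, 57.7 and 40.5 in KO skin, and 107, 222 and 161 in WT epidermis against 66.1, 81.8 and 40.7 in KO epidermis. The difference came to 5.13 (SE 0.66, adjusted p = 0.00111). Socs3 was at 25.6, 38.9 and 31.9 CPM in WT skin against 76.9, 72.3 and 69.0 in KO skin, and 311, 347 and 353 in WT epidermis against 136, 177 and 143 in KO epidermis, with 1.18 in skin and -1.15 in epidermis and a difference of 2.33 (SE 0.22, adjusted p = 0.000226). For both genes the skin groups did not overlap and the epidermis groups did not overlap either. Nr4a3 had effects of 3.28 in skin and -1.06 in epidermis, where Epidermis WT 1 at 14.4 CPM lay below all Epidermis KO libraries. Id1 changed by 1.06 and -0.99, Calcb by 1.46 and -1.38, and Acp7 by 0.96 and -1.17, in skin and epidermis in that order. Hes1, the Notch-responsive repressor, fell in epidermis alone. It was at 38.5, 39.3 and 28.5 CPM in WT skin against 31.7, 36.5 and 30.3 in KO skin, and 262, 384 and 582 in WT epidermis against 26.3, 40.8 and 36.1 in KO epidermis. This gave a difference of 3.46 (SE 0.37, adjusted p = 0.000528). The skin groups of Hes1 overlapped, and Epidermis KO came down to the level of skin. Dnajb1, a co-chaperone of heat shock protein 70, fell in epidermis by 1.67 on the log2 scale and changed by -0.02 in skin (difference 1.65, SE 0.20, adjusted p = 0.00104). Of 12 heat shock genes tested it had the 1 called difference (8.33% beside 16.5% of all genes), and 2 were called without Epidermis KO 2 or Skin WT 1 (median difference of the list 0.05).

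The EGFR ligands and receptors gave 5 positive and 1 negative differences among 12 tested, 50% beside 16.5% of all genes, and a median of 0.30. Hbegf, heparin-binding EGF-like growth factor, was at 6.16, 4.55 and 6.38 CPM in WT skin against 63.9, 132 and 118 in KO skin, and 41.8, 82.5 and 87.2 in WT epidermis against 86.3, 103 and 51.7 in KO epidermis. It rose in skin by 4.20 (SE 0.39, adjusted p = 1.14e-05) while the epidermis groups overlapped, and the difference was 4.02 (SE 0.50, adjusted p = 0.00104). Nrg1, the neuregulin that binds ErbB3 and ErbB4, was at 0.280, 0.575 and 0.182 CPM in WT skin against 9.66, 15.1 and 13.8 in KO skin, and 1.59, 1.86 and 0.951 in WT epidermis against 6.01, 6.22 and 5.73 in KO epidermis. Nrg1 rose in both tissues without overlap, by 5.14 in skin and 2.01 in epidermis, a difference of 3.13 (SE 0.49, adjusted p = 0.00284). The other members with a called difference were chosen after their values were seen. The ligands Areg (2.47 in skin, 0.04 in epidermis) and Ereg (1.07, -0.71) rose in skin with no called change in epidermis, and Epgn (3.34, 2.07) rose in both. Egf fell in skin (-3.38, with -0.38 in epidermis), which is the negative difference of the list (-3.0, SE 0.92, adjusted p = 0.0457). The count of 6 fell to 3 without any 1 of Epidermis KO 3, Epidermis WT 2, Epidermis WT 3, Skin KO 2, Skin KO 3 or Skin WT 3.

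Feedback genes of EGFR and MAP kinase signalling split, with 4 positive and 2 negative differences of 20 tested (30% beside 16.5% of all genes, median 0.12). Etv4, an ETS factor downstream of MAP kinase, rose in skin (1.67) and fell in epidermis (-0.93), a difference of 2.60 (SE 0.41, adjusted p = 0.00297), from 3.57, 2.30 and 4.26 CPM in WT skin against 7.39, 14.8 and 10.1 in KO skin, and 6.63, 6.76 and 6.83 in WT epidermis against 2.77, 4.23 and 3.61 in KO epidermis. Dusp1, a MAP kinase phosphatase, did the same at smaller size (0.57 and -0.95), a difference of 1.52 (SE 0.27, adjusted p = 0.00508). Named after their values were seen, Dusp5 (1.94) and Ier3 (1.08) had positive and the phosphatases Dusp4 (-1.51) and Dusp10 (-2.37) negative differences. ADAM17 partners and other substrates gave 1 positive and 4 negative differences of 22 (22.7% beside 16.5% of all genes, median -0.40). The count of 5 was 3 without Skin KO 3 and 8 without Skin WT 1. Procr, the endothelial protein C receptor, rose in both tissues, from 7.28, 8.68 and 6.02 CPM in WT skin against 22.2, 12.5 and 18.0 in KO skin, and 0.177, 0.0690 and 0.519 in WT epidermis against 13.4, 11.7 and 8.20 in KO epidermis. Its KO groups overlapped, and it had effects of 1.26 and 5.46, a difference of -4.20 (SE 0.57, adjusted p = 0.00148). Csf1r, the macrophage growth factor receptor, fell in skin (-0.67) and rose in epidermis (1.08), a difference of -1.75 (SE 0.33, adjusted p = 0.00633). Chosen after their values were seen, Tnfrsf1b, TNF receptor 2, rose in both tissues (0.99 and 3.0), Il6ra, the interleukin 6 receptor, fell in both (-1.82 and -0.93), and the adhesion molecule Icam1 rose in skin (0.98, with 0.28 in epidermis).

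Proliferation genes rose in skin and were called in both directions in epidermis. All 25 members tested rose in skin (20.8% of all genes rose there). In epidermis 7 rose and 4 fell, beside 24.7% and 23.2% of all genes. A positive difference was called in 22 and a negative one in none (all genes: 6.36% and 10.1%), with a median of 1.43. Cdk1, the kinase that drives mitosis, was at 13.7, 11.7 and 11.5 CPM in WT skin against 36.4, 62.3 and 43.6 in KO skin, and 20.2, 20.4 and 17.7 in WT epidermis against 18.7, 18.2 and 22.2 in KO epidermis. Skin KO lay above the other groups, and the epidermis groups overlapped (difference 1.93, SE 0.26, adjusted p = 0.00148). Tyms, thymidylate synthase for DNA precursors, was at 10.8, 14.1 and 12.3 CPM in WT skin against 24.9, 30.9 and 21.7 in KO skin, and 20.9, 24.6 and 26.5 in WT epidermis against 16.5, 14.1 and 15.8 in KO epidermis, with no overlap in either tissue. It rose by 1.06 in skin, fell by 0.63 in epidermis on the log2 scale, and had a difference of 1.69 (SE 0.23, adjusted p = 0.00148). With a minimum 2-fold difference required in the test, 3 members were called. Leaving out 1 library never moved the count of 22 by over 1.5 times.

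Called differences in the basal keratinocyte, cornified envelope and cholesterol synthesis lists were positive but for 1. They made up 41.2%, 21.4% and 36.4% of the members tested, in that order, beside 16.5% of all genes. In the basal keratinocyte and hemidesmosome list 6 of 17 were positive and 1 negative, that of the plakin Plec, chosen after its value was seen (median 0.52), in the cornified envelope list 6 of 28 positive and none negative (median 0.65), and in cholesterol synthesis 8 of 22 positive and none negative (median 0.59). Krt5, a basal keratin, was at 6296, 6617 and 6189 CPM in WT skin against 6835, 8514 and 7554 in KO skin, and 14153, 12648 and 13800.0 in WT epidermis against 6686, 4746 and 7060.1 in KO epidermis. It fell in epidermis by 1.13 with no called change in skin (0.26, adjusted p = 0.239), a difference of 1.40 (SE 0.25, adjusted p = 0.00506). Krt14, its partner keratin, was at 3881, 3814 and 3229 CPM in WT skin against 8363, 11493 and 9024 in KO skin, and 7728, 6906 and 9706 in WT epidermis against 8438, 5545 and 6563 in KO epidermis and moved on the other side, rising in skin (1.40) with overlapping epidermis groups (difference 1.65, SE 0.29, adjusted p = 0.00508). Cdsn, corneodesmosin of the horny layer, fell in epidermis by 1.94 with no called change in skin (-0.26, adjusted p = 0.383), a difference of 1.68 (SE 0.33, adjusted p = 0.00747). Cnfn, cornifelin, rose in skin (1.96) with -0.02 in epidermis, a difference of 1.98 (SE 0.44, adjusted p = 0.0129). The sterol enzymes Pmvk and Ebp rose in skin by 0.89 and 1.22, with -0.37 and 0.17 in epidermis and adjusted p of 0.00642 and 0.0118 for the differences. The basal list's count of 7 fell to 3 without Epidermis KO 2 or Skin KO 2 and to 4 without Epidermis KO 1, Epidermis WT 1 or Skin KO 3. The count of 8 in cholesterol synthesis was 5 without Epidermis KO 2, Epidermis WT 2, Epidermis WT 3, Skin KO 2 or Skin WT 3, and the 6 of the cornified envelope became 3 without Skin WT 3.

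Smaller counts came from the other epithelial lists. The share called was 8.33% for barrier lipid synthesis, 9.09% for the hair follicle stem cell list, 4.76% for sebaceous genes and 20% for suprabasal genes. Over all genes it was 16.5%. Barrier lipid synthesis had 2 positive differences of 24 tested, Sptlc3 (1.06) of sphingolipid synthesis and the sphingomyelinase Smpd1 (0.69), which both fell in epidermis alone. Plet1 and Id2 were the 2 called of 22 in the hair follicle stem cell and upper follicle list. Plet1, a marker of the upper follicle, rose in both tissues and more in skin (2.77 against 1.5, difference 1.27, SE 0.28, adjusted p = 0.0130), and Id2 rose in epidermis alone (difference -1.29, SE 0.29, adjusted p = 0.0147). Mgst1, a glutathione transferase, was the 1 of 21 sebaceous genes called (difference -1.0, SE 0.29, adjusted p = 0.0390), and the call was lost without any 1 of 9 libraries, with adjusted p up to 0.0938. The sebaceous count was 5 without Skin WT 1 and 0 without Epidermis KO 3, Epidermis WT 3, Skin KO 1, Skin KO 2, Skin KO 3, Skin WT 2 or Skin WT 3. Among 15 suprabasal keratins and desmosome genes, Pkp3, a desmosome plaque protein, was positive (0.59), and the keratin Krt2 (-4.39) and, chosen after its value was seen, the cadherin Dsg1a (-1.15) were negative. The genotype effect of Krt2 was called in skin and not in epidermis. Krt2 was highest in epidermis in Epidermis KO 2, at 6.17, 33.4 and 3.82 CPM in Epidermis KO, and its difference was -2.86 without that library and lost its call without Skin KO 1 (adjusted p = 0.0523) or Skin KO 2 (adjusted p = 0.0666). Pkp3 lost its call without any 1 of 8 libraries, with adjusted p up to 0.0739, and the suprabasal count of 3 ran from 0 without Skin KO 2 to 6 without Skin WT 1, with 1 without Epidermis KO 2, Epidermis KO 3, Epidermis WT 1, Skin KO 1 or Skin WT 3. No difference was called by edgeR among 11 melanocyte genes (2 at an unadjusted p below 0.05) or 15 circadian clock genes (3), and DESeq2 called 1 gene of each list. Leaving out 1 library gave 2 clock genes without Skin KO 1 or Skin WT 1, 2 melanocyte genes without Epidermis KO 1 and 1 without Skin WT 1. Of the clock genes, 9 fell in skin and 11 in epidermis (27.8% and 23.2% of all genes).

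Hair shaft and inner root sheath genes rose in skin in 23 of 33 members and in none in epidermis (20.8% and 24.7% of all genes). Yet only 2 differences were called, 6.06% beside 16.5% of all genes (median difference 2.81). The hair shaft markers summed to 94.6, 0.418 and 49.6 CPM in Skin WT and 1739, 23.2 and 409 in Skin KO, so the libraries of a group lay far apart. The hair keratin Krt32 was at 15.3, 13.3 and 10.3 CPM in WT skin against 51.5, 2.0 and 14.5 in KO skin, and 30.9, 30.1 and 41.1 in WT epidermis against 1.82, 3.99 and 4.81 in KO epidermis, and Krtap3-2, a keratin-associated protein with similar copies in its family, which makes its counts uncertain, at 51.7, 43.0 and 31.3 CPM in WT skin against 232, 2.0 and 63.2 in KO skin, and 15.2, 15.4 and 29.8 in WT epidermis against 1.34, 0.479 and 1.98 in KO epidermis. Both fell in epidermis without overlap and overlapped in skin, with differences of 4.06 (SE 1.09, adjusted p = 0.0283) for Krt32 and 5.20 (SE 1.55, adjusted p = 0.0421) for Krtap3-2. Krt32 lost its call without any 1 of 5 libraries and Krtap3-2 without any 1 of 10, with adjusted p up to 0.0726 and 0.106, and the difference of Krt32 was 2.62 without Skin KO 1. The count of 2 was 0 without Epidermis KO 1, Epidermis KO 2, Epidermis WT 3, Skin KO 1 or Skin WT 3 and 1 without Epidermis KO 3, Epidermis WT 1, Epidermis WT 2, Skin KO 3 or Skin WT 2, and it was 7 with the replicate number as a block in skin, where Krtap3-2 was not called (adjusted p = 0.0882).

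Most inflammatory genes of the epidermal response changed in both tissues with no difference called by edgeR, which does not make their effects equal. DESeq2 called 9 alarmins and stress keratins, 5 neutrophil genes and 5 antimicrobial genes, beside 3, 2 and 3 by edgeR. Of the alarmins and stress keratins 29 of 29 rose in skin and 28 in epidermis (20.8% and 24.7% of all genes). A difference was called in 3 of them, all positive, which is 10.3% beside 16.5% of all genes. The fitted difference was above 0 in 24 of 29 (median 0.98, 1.03 with members at 0 reads set to a bound). Gjb6, the gap junction protein connexin 30, was at 1.82, 1.52 and 2.37 CPM in WT skin against 52.0, 82.1 and 64.4 in KO skin, and 3.80, 2.69 and 2.42 in WT epidermis against 34.3, 23.5 and 13.2 in KO epidermis. Its difference was 2.12 (SE 0.48, adjusted p = 0.0145). Sprr1a, a cornified envelope precursor with similar family members, had a difference of 1.14 (SE 0.35, adjusted p = 0.0452) and lost its call without any 1 of 9 libraries, with adjusted p up to 0.101. The third was the stress keratin Krt17, chosen after its value was seen (1.13 in skin, 0.16 in epidermis), and the count of 3 became 1 without Epidermis KO 2, Epidermis WT 2, Epidermis WT 3, Skin KO 2, Skin KO 3 or Skin WT 3. Type 17 immunity had 3 positive differences of 22, 13.6% beside 16.5% of all genes (median -0.12, and 0.125 with members at 0 reads set to a bound). Nfkbiz, a co-activator of interleukin 17 target genes, was at 11.2, 13.9 and 14.4 CPM in WT skin against 151, 129 and 148 in KO skin, and 65.7, 125 and 115 in WT epidermis against 198, 219 and 182 in KO epidermis. It rose in both tissues, by 3.43 in skin and 0.97 in epidermis, a difference of 2.46 (SE 0.29, adjusted p = 0.000852). Zc3h12a, the RNase regnase-1 that limits cytokine transcripts, rose likewise (3.98 and 2.09, difference 1.90, SE 0.24, adjusted p = 0.00104), as did the interleukin 36 antagonist Il1f5, chosen after its value was seen (difference 0.81).

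Neutrophil genes and chemoattractants rose in 21 of 22 members in both tissues (20.8% of all genes rose in skin, 24.7% in epidermis). A called difference was positive in 1 and negative in 1, 9.09% beside 16.5% of all genes (median -0.54, 0.03 at bounds). Cxcl1, a ligand that draws neutrophils, was at 0.140, 0.157 and 0 CPM in WT skin against 15.4, 8.51 and 9.97 in KO skin, and 0.972, 2.55 and 1.90 in WT epidermis against 9.89, 12.4 and 8.84 in KO epidermis. The KO groups overlapped, while Skin WT was the lowest group, and the difference was 4.20 (SE 0.71, adjusted p = 0.00391). Cxcr2, its receptor on neutrophils, was at 0.210, 0.261 and 0.304 CPM in WT skin against 30.8, 25.4 and 29.6 in KO skin, and 0.0884, 0.0690 and 0 in WT epidermis against 68.1, 53.4 and 44.3 in KO epidermis. Cxcr2 rose by 6.73 in skin and was 1030.0 times as high in KO as in WT epidermis by pooled reads (95% interval 283 to 8470.0), a difference with adjusted p = 0.00985. Of 17 antimicrobial genes 3 differed, all positive, which is 17.6% beside 16.5% of all genes. The count was 1 without Epidermis WT 2, Epidermis WT 3, Skin KO 1, Skin WT 2 or Skin WT 3. Defb1, beta-defensin 1, rose in skin (0.47) and fell in epidermis (-1.25), a difference of 1.72 (SE 0.23, adjusted p = 0.00122). Slpi, a secreted protease inhibitor, rose in both (7.52 and 5.07), with a difference of 2.45 (SE 0.70, adjusted p = 0.0346) that lost its call without any 1 of 6 libraries (adjusted p up to 0.136) and with the replicate block in skin (0.0548). Saa1, serum amyloid A, chosen after its value was seen, rose in skin (4.74, with 0.32 in epidermis). Sgpp2, a phosphatase of sphingosine 1-phosphate, had the largest positive difference among genes that rose in both, 4.30 (SE 0.58, adjusted p = 0.00144), from 0.350, 0.157 and 0.608 CPM in WT skin against 49.8, 80.7 and 50.3 in KO skin, and 0.796, 0.621 and 0.692 in WT epidermis against 4.11, 7.34 and 5.87 in KO epidermis. Dgat2l6, an acyltransferase of lipid synthesis, and Bcl2l15, a BCL2 family member, were also higher in skin, with differences of 2.95 and 2.60.

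Genes of fibroblasts, vessels, fat and nerves had negative differences above the share of all genes. Of 25 fibroblast and matrix genes 19 had a negative difference and none a positive one (all genes: 10.1% negative), with a median of -3.82. In skin 17 fell (27.8% of all genes fell there), in epidermis 20 rose (24.7% of all genes), and 12 were called in opposite directions. Endothelial genes gave 14 of 19 (median -3.66, -3.58 at bounds), adipocyte genes 12 of 19 (-3.87), and Schwann cell and nerve genes 6 of 14 negative with 1 positive (-2.32), the early gene Egr2, chosen after its value was seen. A fit limited to genes above 1 CPM in both tissues drops members that are low in epidermis. It called 19 fibroblast, 9 adipocyte, 6 endothelial and 6 Schwann cell and nerve genes. In bulk RNA fewer cells of a type and less RNA per cell cannot be told apart. Endothelial markers summed to 72.9 to 91.1 CPM in Skin WT, 23.9 to 33.0 in Skin KO, 0.778 to 1.06 in Epidermis WT and 3.01 to 7.90 in Epidermis KO. Adipocyte markers went from 1363 to 1736 to 111 to 271 in skin and from 1.24 to 3.66 to 2.53 to 10.1 in epidermis. No defining fibroblast, endothelial or adipocyte marker was at 0 in all libraries of Epidermis KO, and 1 of 5 endothelial markers was at 0 throughout Epidermis WT. How far more dermal RNA in Epidermis KO takes part in these differences was not tested.

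Dpt, the matrix protein dermatopontin, was at 264, 355 and 370.0 CPM in WT skin against 46.4, 46.7 and 87.2 in KO skin, and 0.265, 0.0690 and 0.0864 in WT epidermis against 4.04, 7.42 and 1.70 in KO epidermis. All 4 groups were separate, in the order Skin WT, Skin KO, Epidermis KO and Epidermis WT. Dpt fell by 2.46 in skin and rose by 4.93 in epidermis, a difference of -7.38 (SE 0.83, adjusted p = 0.000655). Vim, the filament protein vimentin of mesenchymal and immune cells, was at 406, 319 and 379 CPM in WT skin against 197, 247 and 267 in KO skin, and 56.7, 54.2 and 69.1 in WT epidermis against 214, 240.2 and 130.2 in KO epidermis, so that its KO groups overlapped (difference -2.33, SE 0.30, adjusted p = 0.00111). Pi16, a marker of adventitial fibroblasts, stood at 93.7, 290.4 and 152 CPM in WT skin against 22.4, 16.2 and 53.9 in KO skin, and 0, 0.207 and 0.0864 in WT epidermis against 4.11, 9.49 and 1.84 in KO epidermis. The resulting difference was -8.00 (SE 1.27, adjusted p = 0.00304). Serpinf1, which encodes pigment epithelium-derived factor, was at 77.1, 116 and 110.5 CPM in WT skin against 12.9, 12.2 and 28.2 in KO skin, and 0.177, 0.552 and 0.173 in WT epidermis against 4.43, 3.59 and 2.47 in KO epidermis. For this gene the difference was -5.92 (SE 0.64, adjusted p = 0.000519). Clec3b, tetranectin, fell in skin by 2.68 and rose in epidermis by 3.18, a difference of -5.86 (SE 0.88, adjusted p = 0.00237). Ogn, osteoglycin, had 3 reads over Epidermis WT and was 12.7 times as high in KO as in WT epidermis by pooled reads (95% interval 4.04 to 64.0). Islr, a leucine-rich repeat protein of the immunoglobulin superfamily, and Scara5, a ferritin receptor, had 3 and 2 reads there, and pooled-read ratios of 17.4 (95% interval 5.66 to 87.1) and 20.9 (5.46 to 178). In skin Ogn, Islr and Scara5 fell by 2.73, 2.49 and 2.90. These intervals and bounds cover counting error only.

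Tek, the angiopoietin receptor of endothelial cells, had 1 read over Epidermis WT and stood at 12.7, 24.0 and 17.8 CPM in WT skin against 3.41, 2.57 and 5.14 in KO skin, and 0, 0.0690 and 0 in WT epidermis against 0.791, 1.04 and 0.848 in KO epidermis. It fell in skin by 2.29, and its level was 33.3 times as high in KO as in WT epidermis by pooled reads (95% interval 5.59 to 1350.0) (adjusted p of the difference 0.000612). Eng, the endothelial co-receptor endoglin, changed by -1.24 in skin and 2.67 in epidermis, a difference of -3.91 (SE 0.48, adjusted p = 0.000957). Cd36 (chromosome 5, 17781690 to 17888801), a fatty acid receptor of adipocytes, endothelium and macrophages, was at 189.7, 217 and 288 CPM in WT skin against 144, 164 and 151 in KO skin, and 1.24, 0.966 and 0.951 in WT epidermis against 25.2, 18.7 and 39.4 in KO epidermis. The epidermis groups of Cd36 were far apart and the skin groups close, without overlap, and the difference was -5.32 (SE 0.39, adjusted p = 0.000140). Plin4, a lipid droplet coat protein, fell in skin (-2.30) and rose in epidermis (2.16), a difference of -4.46 (SE 0.47, adjusted p = 0.000446). Cnp, a myelin enzyme, was at 20.5, 15 and 16.2 CPM in WT skin against 8.31, 7.22 and 8.06 in KO skin, and 1.86, 1.10 and 1.04 in WT epidermis against 3.80, 3.19 and 3.46 in KO epidermis. Skin minus epidermis gave -2.52 (SE 0.32, adjusted p = 0.00105). Prx, periaxin of myelinating Schwann cells, fell in skin alone (-2.08), with 0.13 in epidermis and a difference of -2.21 (SE 0.29, adjusted p = 0.00135). Eepd1 (chromosome 9, 25481547 to 25604110), an endonuclease family member, changed by -1.61 and 2.64, a difference of -4.25 (SE 0.36, adjusted p = 0.000210). Ass1 (chromosome 2, 31470207 to 31520672), an enzyme of arginine synthesis, went the other way, from 9.32, 11.9 and 11.4 CPM in WT skin against 61.5, 59.0 and 58.3 in KO skin, and 27.0, 31.9 and 24.3 in WT epidermis against 32.5, 32.4 and 33.7 in KO epidermis, and rose in skin alone (difference 2.21, SE 0.18, adjusted p = 0.000207).

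**Figure D3:**
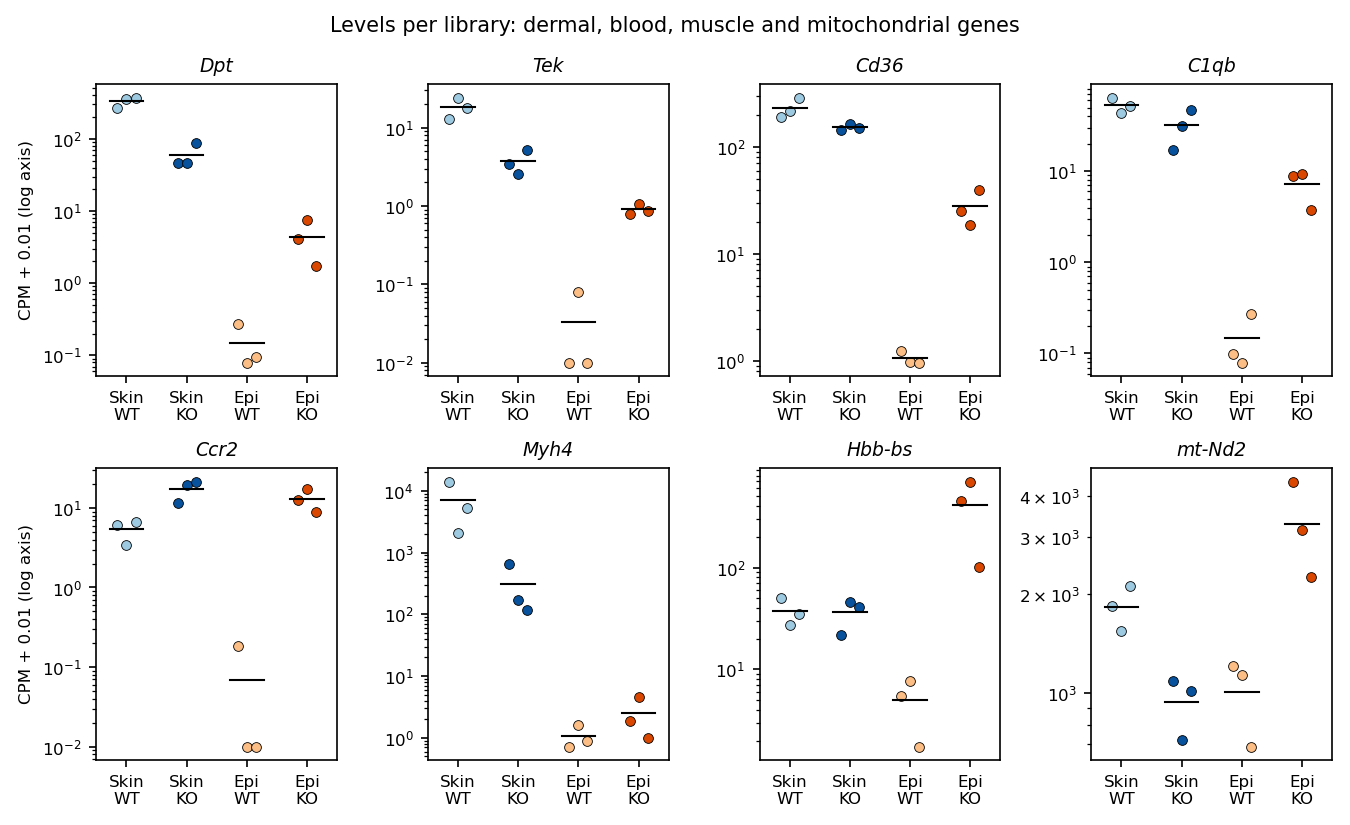
CPM + 0.01 of 8 genes in each of the 12 libraries on log axes, points are libraries and bars group means. Dpt, Tek and Cd36 fall in skin and rise in epidermis, Myh4 is high only in skin, and Hbb-bs rises only in epidermis.

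Skeletal muscle genes differed through skin. All 22 members tested fell in skin (27.8% of all genes fell there), and none was called in epidermis by edgeR (0 at an unadjusted p below 0.05). A negative difference was called in 11, which is 50% beside 10.1% of all genes (median -5.25). The muscle markers summed to 53648, 6445 and 17007 CPM in Skin WT and 2302, 775 and 433 in Skin KO, and the epidermis libraries held 8.22 to 11 (WT) and 7.99 to 20.1 (KO). Muscle thus varied several-fold within each skin group and was low in epidermis. Myh4, a fast myosin heavy chain, was at 14012, 2067 and 5309 CPM in WT skin against 643, 171 and 116 in KO skin, and 0.707, 1.59 and 0.864 in WT epidermis against 1.90, 4.63 and 0.990 in KO epidermis, a difference of -5.71 (SE 1.29, adjusted p = 0.0140) that was not called without Epidermis KO 2 (adjusted p = 0.0546). Neb, the giant sarcomere protein nebulin, had -3.62 in skin and 1.71 in epidermis, a difference of -5.33 (SE 1.23, adjusted p = 0.0154). The count of 11 was 20 with the replicate number as a block in skin and 0 by limma-voom. Without 1 library it ran from 1 (Epidermis KO 2) to 16 (Skin WT 2), with 6 without Epidermis WT 3 and 7 without Epidermis WT 1, Epidermis WT 2 or Skin KO 2.

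Macrophage genes rose in epidermis and not, as a list, in skin. Of 22 members tested 18 had a negative difference and none a positive one (all genes: 10.1% and 6.36%). In epidermis 19 rose (24.7% of all genes), and in skin 3 rose and 7 fell (20.8% and 27.8%). The median difference was -5.31, or -4.0 with the 7 members at 0 reads in Epidermis WT set to a bound of 3 reads over the group. Without Epidermis KO 2 the count was 11, and in a fit limited to genes above 1 CPM in both tissues it was 10. C1qb, a chain of complement C1q made by macrophages, was at 64.2, 43.7 and 52.2 CPM in WT skin against 17.1, 31.7 and 47.4 in KO skin, and 0.0884, 0.0690 and 0.259 in WT epidermis against 8.86, 9.33 and 3.75 in KO epidermis. The skin groups overlapped, with -0.73 (adjusted p = 0.117), and epidermis rose from near 0, a difference of -6.41 (SE 0.78, adjusted p = 0.00100). Lyz2, the lysozyme of myeloid cells, was at 208, 140.2 and 212 CPM in WT skin against 61.8, 136 and 210.5 in KO skin, and 0.884, 0.621 and 0.778 in WT epidermis against 43.0, 51.0 and 10.8 in KO epidermis. The difference came to -5.98 (SE 0.87, adjusted p = 0.00214). The chemokine receptor Ccr2 of inflammatory monocytes was at 6.09, 3.45 and 6.63 CPM in WT skin against 11.6, 19.2 and 21.3 in KO skin, and 0.177, 0 and 0 in WT epidermis against 12.6, 17.2 and 8.77 in KO epidermis. Ccr2 rose in both tissues, by 1.69 in skin, and was 237 times as high in KO as in WT epidermis by pooled reads (95% interval 65.3 to 1960.0), and its KO groups overlapped (adjusted p of the difference 0.00169). The chemokine receptor Ccr1, the surface protein Ms4a6d and the lymphocyte receptor Cd226 had 0 reads in Epidermis WT and a rise in both tissues. Against 3 reads over Epidermis WT, Epidermis KO was at least 100-fold higher for Ccr1, 29.1-fold for Ms4a6d and 19-fold for Cd226, and the skin effects were 3.02, 1.5 and 1.87.

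Type 2 immunity, the arm of eosinophils and alternatively activated macrophages, gave 6 negative differences of 19 and 1 positive, that of Areg above (36.8% called beside 16.5% of all genes, median -0.41). Ccl11, the eosinophil attractant eotaxin-1, was at 15.9, 32.4 and 20.3 CPM in WT skin against 4.69, 7.93 and 9.33 in KO skin, and 0 in all 3 libraries in WT epidermis against 2.06, 2.55 and 2.69 in KO epidermis. It fell in skin by 1.64 and was at least 30.4-fold higher in KO than in WT epidermis. Retnla, a product of alternatively activated macrophages, was at 227, 159 and 148 CPM in WT skin against 4.26, 14.9 and 31.9 in KO skin, and 0.177, 0.276 and 0.0864 in WT epidermis against 2.93, 5.03 and 0.495 in KO epidermis. This gave a difference of -7.21 (SE 1.30, adjusted p = 0.00520). Emilin2, an extracellular matrix glycoprotein, was at 20.6, 43.2 and 29.4 CPM in WT skin against 6.39, 8.29 and 15.7 in KO skin, and 0 in all 3 libraries in WT epidermis against 5.38, 8.61 and 2.19 in KO epidermis, fell in skin by 1.62 and was at least 65.6-fold higher in KO than in WT epidermis. Among 22 interferon gamma and MHC class II genes 8 differences were negative and 1 positive, that of the proteasome subunit Psmb8, chosen after its value was seen (0.63, list median -0.97). That is 40.9% called beside 16.5% of all genes, and the count of 9 was 5 without Skin KO 2. Gbp3 and Gbp4, interferon-induced GTPases of a family with similar copies that makes their counts uncertain, fell in skin (-1.72 and -0.86) and rose in epidermis (2.20 and 1.94), with differences of -3.91 (SE 0.72, adjusted p = 0.00558) and -2.80 (SE 0.48, adjusted p = 0.00410). Type I interferon genes fell in skin in 17 of 22 members and in epidermis in 6 (27.8% and 23.2% of all genes). Differences were called in 4, all negative, which is 18.2% beside 16.5% of all genes called in either direction (median -1.34). Rsad2, the antiviral protein viperin, fell in skin by 1.49 and was 29.5 times as high in KO as in WT epidermis by pooled reads (95% interval 4.91 to 1200.0), with at most 1.64 CPM in any library. Ifi27l2a, another interferon target, fell in both tissues and more in skin (-2.38 against -0.86, difference -1.51, SE 0.35, adjusted p = 0.0163). The other members, chosen after their values were seen, were Ifit3 and Ifit3b, near-identical neighbours (-5.03 and -5.23), and the count of 4 was 8 without Epidermis KO 1 or Skin WT 2 and 2 without Epidermis KO 2.

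Of 21 T cell genes 2 had a positive and 1 a negative difference, which is 14.3% beside 16.5% of all genes. Il2ra, the interleukin 2 receptor alpha chain of activated and regulatory T cells, was at 1.12, 1.57 and 1.28 CPM in WT skin against 6.11, 9.36 and 9.14 in KO skin, and 0.354, 0.0690 and 0.173 in WT epidermis against 9.81, 14.3 and 6.86 in KO epidermis. It rose in both tissues without overlap, and more in epidermis (difference -3.08, SE 0.60, adjusted p = 0.00731). Tnfrsf18, the co-stimulatory receptor GITR, fell in both, by 0.57 in skin and 1.91 in epidermis, a difference of 1.34 (SE 0.19, adjusted p = 0.00210), and the related Tnfrsf4, chosen after its value was seen, had a difference of 1.43. Of 13 genes of dendritic epidermal T cells and Langerhans cells 2 were called (15.4% beside 16.5% of all genes), and 4 without Skin WT 1. Cd1d1, the lipid-presenting molecule, was at 25.3, 33.7 and 39.0 CPM in WT skin against 15.5, 25.3 and 17.5 in KO skin, and 0.884, 0.828 and 0.864 in WT epidermis against 5.85, 4.47 and 5.37 in KO epidermis. Its difference was -3.35 (SE 0.34, adjusted p = 0.000356). Mfge8, a bridging protein for dying cells, rose in both and more in epidermis (1.35 against 2.95, difference -1.60, SE 0.35, adjusted p = 0.0130). Hdc, the histamine-forming enzyme, was the 1 of 10 mast cell genes called (10% beside 16.5% of all genes). The count was 4 without Epidermis KO 1, 2 without Skin WT 1, 5 by DESeq2 and 0 by limma-voom. Hdc was at 2.87, 3.87 and 6.99 CPM in WT skin against 7.39, 7.58 and 10.2 in KO skin, and 0.0884, 0.207 and 0.0864 in WT epidermis against 7.28, 20 and 2.19 in KO epidermis. The resulting difference was -5.25 (SE 1.12, adjusted p = 0.0112). Among 16 matrix metalloproteinase genes 3 were called, all negative, which is 18.75% beside 16.5% of all genes called in either direction. The proteoglycan-cutting Adamts5 was at 15.9, 27.9 and 28.8 CPM in WT skin against 20.5, 25.6 and 25.6 in KO skin, and 0.619, 0.345 and 0.173 in WT epidermis against 13.9, 10.8 and 8.63 in KO epidermis, with overlapping skin groups and a difference of -4.87 (SE 0.48, adjusted p = 0.000270), the gelatinase Mmp2 changed by -0.65 and 1.72 (difference -2.38, SE 0.32, adjusted p = 0.00140), and Mmp19, chosen after its value was seen, by 1.0 (adjusted p = 0.176) and 5.21.

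All 13 mitochondrially encoded genes tested had a negative difference (10.1% of all genes did), with a median of -2.44. In epidermis 12 rose and none fell (24.7% and 23.2% of all genes), and in skin 3 fell and none rose (27.8% and 20.8%). mt-Nd2, a subunit of respiratory complex I, was at 1844, 1546 and 2117 CPM in WT skin against 1090.4, 721 and 1016 in KO skin, and 1208, 1135 and 686 in WT epidermis against 4410.5, 3137 and 2255 in KO epidermis. For this gene the difference was -2.66 (SE 0.40, adjusted p = 0.00236). mt-Atp6, a subunit of the ATP synthase, was at 1516, 1330.4 and 1364 CPM in WT skin against 1075, 652 and 966 in KO skin, and 1517, 1441 and 1139.6 in WT epidermis against 6552, 4587 and 3129 in KO epidermis. Skin minus epidermis gave -2.44 (SE 0.37, adjusted p = 0.00240). Epidermis KO was the highest group for both, without overlap. Leaving these genes out of the fit gave 2506 called differences among the others. Red blood cell genes differed through epidermis, with 5 of 6 negative (all genes: 10.1%, median of the list -3.77), 4 rising in epidermis (all genes: 24.7%) and none called in skin. Hbb-bs, a beta globin that shares sequence with Hbb-bt, so that the split of reads between them is uncertain, was at 50.1, 27.2 and 35.2 CPM in WT skin against 21.9, 46.3 and 41.0 in KO skin, and 5.48, 7.73 and 1.73 in WT epidermis against 449.8, 695 and 100.1 in KO epidermis. The difference came to -6.40 (SE 0.93, adjusted p = 0.00207). Hbb-bt had 7.63 in epidermis and 0.57 in skin, a difference of -7.05 (SE 1.18, adjusted p = 0.00382). Chosen after their values were seen, the others were the alpha globins Hba-a1 (-2.40) and Hba-a2 (-4.36), also near-identical copies, and Alas2 of heme synthesis (-3.19). The part of blood in the other differences was not tested. Glycolysis split into 3 positive and 3 negative of 17, with 35.3% called beside 16.5% of all genes. The list summed to 19522, 4969 and 8212 CPM in Skin WT, where the muscle markers had the same order of libraries. In Skin KO it summed to 7570, 9534 and 8588 CPM, where the muscle markers had another order. The part of muscle in these genes was not tested. Slc2a1, the glucose transporter GLUT1, was at 43.3, 44.1 and 46.5 CPM in WT skin against 157, 303 and 239.8 in KO skin, and 105, 97.9 and 107 in WT epidermis against 151, 125 and 152 in KO epidermis. This gave a difference of 1.92 (SE 0.27, adjusted p = 0.00174). Hk2, the inducible hexokinase, was at 112, 35.7 and 68.0 CPM in WT skin against 90.3, 164 and 119 in KO skin, and 8.22, 8.42 and 6.83 in WT epidermis against 99.3, 101 and 74.2 in KO epidermis. Its difference was -2.75 (SE 0.49, adjusted p = 0.00514). The other members, chosen after their values were seen, were Pfkl (0.95), Eno1 (0.79), Pfkfb3 (-1.68) and Aldoa (-2.58).

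**Figure D4:**
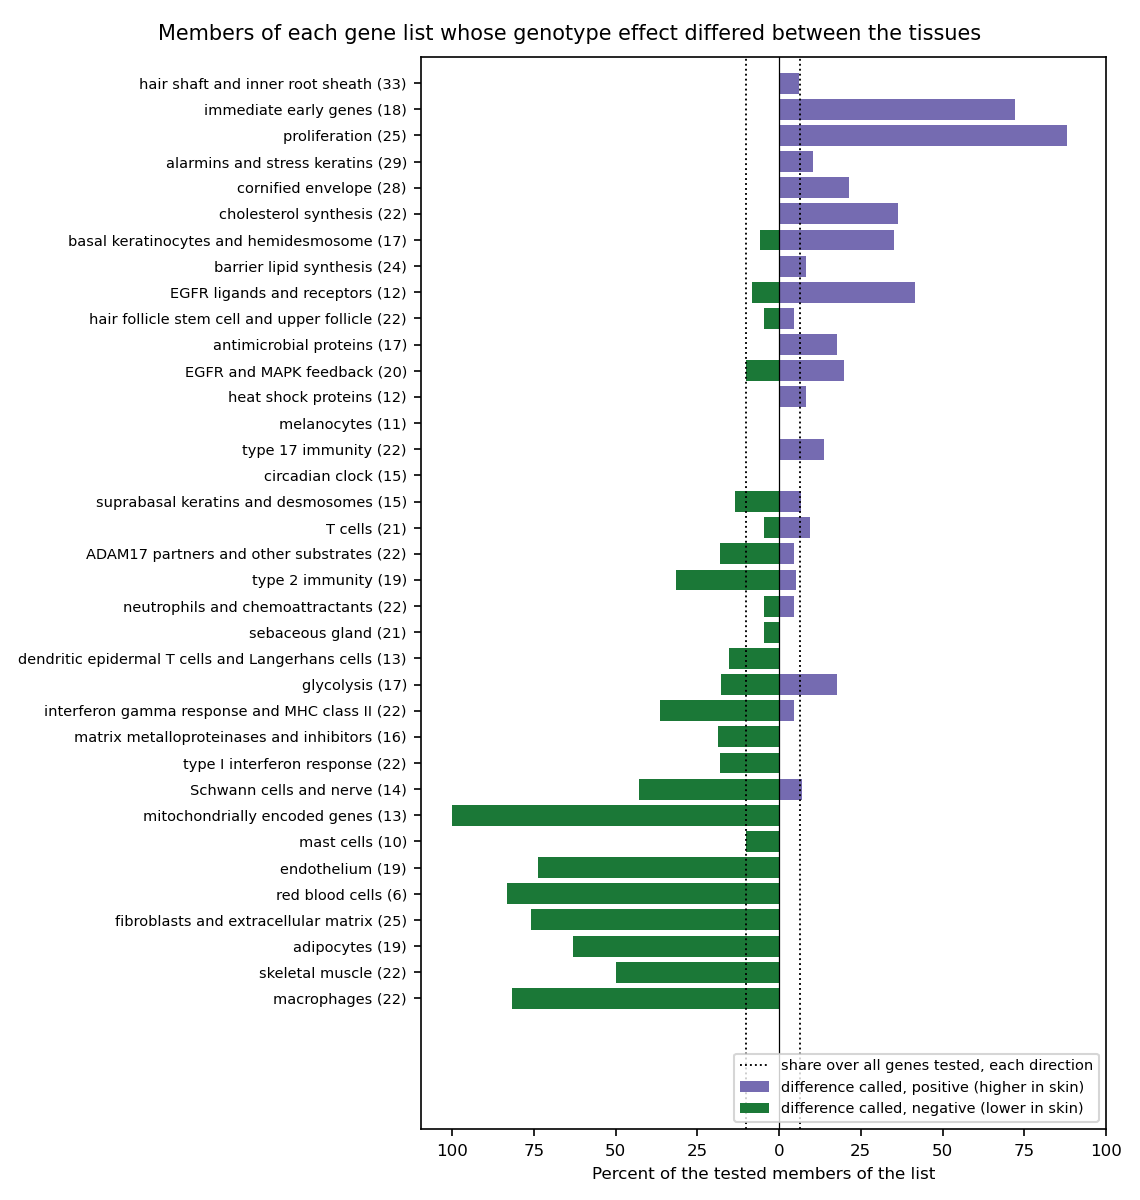
Percent of the tested members of each of 36 gene lists (number tested in parentheses) with a called difference, positive to the right and negative to the left; dotted lines mark the shares over all genes tested, 6.36% and 10.1%. Proliferation and immediate early genes reach furthest to the right, and mitochondrially encoded, red blood cell, macrophage and fibroblast genes furthest to the left.

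Several of the largest negative differences came from genes whose epidermal level was highest in the library Epidermis KO 2. Amy1, the salivary amylase gene, was at 36.4, 45.9 and 44.6 CPM in WT skin against 3.41, 1.36 and 3.49 in KO skin, and 0.177, 0.690 and 0.778 in WT epidermis against 0.0791, 263 and 14.6 in KO epidermis. Epidermis KO 1 lay below all Epidermis WT libraries, and Epidermis KO 2 was the highest of all 12, with a difference of -11.28 (SE 2.28, adjusted p = 0.00870). Ceacam1, a cell adhesion molecule, was at 1.68, 2.98 and 1.95 CPM in WT skin against 0.639, 0.786 and 0.571 in KO skin, and 0 in all 3 libraries in WT epidermis against 0.396, 48.5 and 5.16 in KO epidermis, and it was at least 217-fold higher in KO than in WT epidermis. The same pattern, with 0 or 1 read over Epidermis WT and the highest epidermal level in Epidermis KO 2, was found for Aqp4, a water channel, Pllp, a myelin membrane protein, Mgat3, a glycosyltransferase, Osr2, a transcription factor, and Enpp3, an ectoenzyme. Their levels in Epidermis KO were 0, 5.42 and 0.495 CPM for Aqp4, 0, 3.43 and 0.424 for Pllp, 0.0791, 7.42 and 0.848 for Mgat3, 0.158, 8.85 and 0.990 for Osr2 and 0.475, 19.2 and 2.62 for Enpp3. Of these, Amy1, Aqp4 and Pllp also fell in skin, by 3.93, 3.42 and 3.33. Csrp3, a muscle LIM protein, was at 138, 6.43 and 44.0 CPM in WT skin against 7.88, 4.50 and 2.41 in KO skin, and 0 in all 3 libraries in WT epidermis against 1.03, 2.23 and 1.13 in KO epidermis (adjusted p of the difference 0.0215). Without Epidermis KO 2 the calls of Aqp4 (adjusted p = 0.112) and Csrp3 (adjusted p = 0.0631) were lost. Aqp4 was also not called without Epidermis WT 3 (adjusted p = 0.0540), Skin KO 2 (adjusted p = 0.0606), Skin KO 3 (adjusted p = 0.0535) or Skin WT 3 (adjusted p = 0.0509), nor Csrp3 without Skin KO 2 (adjusted p = 0.0546). By limma-voom Amy1 (adjusted p = 0.239), Csrp3 (0.187), Aqp4 (0.127), Ceacam1 (0.116) and Enpp3 (0.0543) were not called. With the replicate number as a block within genotype, which the pairing check does not bear out, Amy1, Aqp4, Mgat3, Pllp and Osr2 lost their calls.

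**Figure D5:**
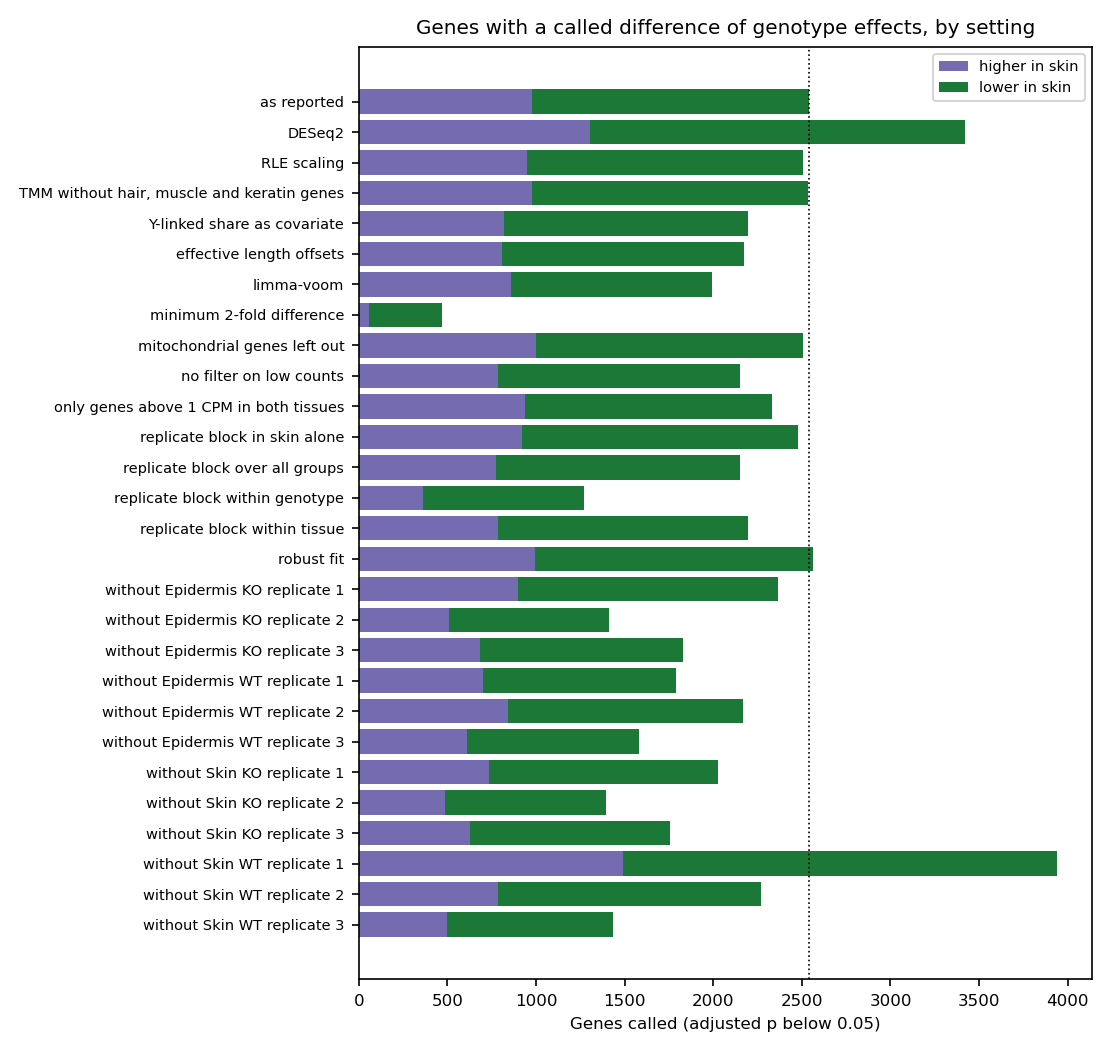
Number of genes with a called difference (x axis), positive and negative stacked, as reported and under 27 other settings; the dotted line marks 2539. Counts run from 469 with a minimum 2-fold difference to 3940 without Skin WT 1, and negative differences outnumber positive ones in each.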

How the data were processed

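RNA of whole skin and epidermis was measured in 12 libraries, prepared by a stranded mRNA protocol that selects poly(A) RNA (per the labels). The deposited values are expected counts per gene, estimated by RSEM after STAR 2.5.1 alignment to mm10 (bcl2fastq 2.17 for base calls), per the file headers and the submitters' processing notes. The sources used here name neither annotation release nor strand setting. RSEM divides ambiguous reads among the genes they match, which left 8.42% to 9.98% of values fractional. The deposited effective lengths (another value, per the file headers) served as offsets in 1 alternative, and TPM and FPKM were not used.

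Expected counts were rounded. Of 47643 gene IDs, 47224 matched GENCODE release M21 for symbol and position, 39106 of them with the version number. edgeR 4.0.16 in R 4.3.3 was run with TMM, the default filter (minimum count 10), 4 group means and a quasi-likelihood fit, with Benjamini-Hochberg adjustment. The SE is the size of the log2 value divided by the square root of F. The members, the 36 gene lists and the rules were chosen with earlier results of these data known. Of 714 list members 713 were found.

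Named genes were those past the threshold with the 10 largest differences each way at a mean of 1 CPM or more in a group of each tissue, the 10 opposite changes each way with the largest smaller effect, the 5 largest same-direction differences each way, the 5 smallest adjusted p, up to 2 per list, and Adam17, with the first 3 kinds limited to that level and to established symbols. Of the genes so named, 1 is not reported here. The ranking used fitted values, which depend on the prior count for genes with 0 reads. Such a gene gets a bound, taking 3 reads for its WT group. A group with 1 to 3 reads gets a pooled-read ratio and its exact 95% interval. Tested on simulated data of 15163 genes, the fit recovered 22%, 60%, 80% and 86% of log2 differences of 1, 1.5, 2 and 3, with 2.36% false among calls. Only 50 genes were changed at each size, all at a mean of 1 CPM or more, and each gene was given the spread of the trend over genes. In the data 16.5% of genes were called, so these shares need not hold there.

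Groups share replicate numbers. Deviations from group means correlated across genes at 0.321, 0.304 and 0.256 between WT and KO skin libraries of 1 number, at 0.0972, 0.191 and -0.107 in epidermis, and at -0.404 to 0.11 and -0.0705 to 0.00608 between the tissues in WT and KO. Libraries of unlike numbers gave -0.438 to 0.199 between WT and KO skin and -0.296 to 0.155 between WT and KO epidermis. Between the tissues unlike numbers gave -0.13 to 0.178 in KO and -0.345 to 0.444 in WT, which reaches above the skin values. So the numbers were taken to pair skin libraries only, which the labels do not state. Chi-square per degree of freedom was at least 13.4 between libraries of 1 group, so none is a copy of another. Alternatives were DESeq2 1.42.0, limma-voom (limma 3.58.1), other scalings and filters, covariates, blocks and leaving out each library.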

Additional observations from a re-analysis of the deposited data

Results flagged for a closer look

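The effect of the knockout differed between skin and epidermis, by the test of the difference itself, for 2539 genes. The named genes among them are given here with their log2 difference, skin minus epidermis, and no explanation of any of them was tested. Where a gene had at most 3 reads over the WT epidermis libraries, its value is the fitted skin effect minus an epidermis ratio from pooled reads, taken against 3 reads where there were 0. Such a value is an estimate and no bound, and other settings gave some of them nearer 0.

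Among early response and signalling genes the difference was 6.01 for Fosl1, 5.14 for Fosb, 5.13 for Arc, 4.34 for Nr4a3, 3.16 for Fos, 3.15 for Junb, 2.33 for Socs3, 2.05 for Id1 and 2.23 for Myc. It was 2.84 for Calcb, 2.14 for Acp7, 3.46 for Hes1, 1.65 for Dnajb1, 2.60 for Etv4 and 1.52 for Dusp1. For ligands of the EGF receptor family it was 4.02 for Hbegf and 3.13 for Nrg1, and for substrates of ADAM17 -4.20 for Procr and -1.75 for Csf1r. The cell cycle genes had 1.93 for Cdk1 and 1.69 for Tyms. Epithelial and lipid synthesis genes had 1.40 for Krt5, 1.65 for Krt14, 1.68 for Cdsn, 1.98 for Cnfn, 0.59 for Pkp3, -4.39 for Krt2, 1.06 for Sptlc3, 0.69 for Smpd1, 1.26 for Pmvk and 1.05 for Ebp. Follicle, gland and hair genes had 1.27 for Plet1, -1.29 for Id2, -1.0 for Mgst1, 4.06 for Krt32 and 5.20 for Krtap3-2. Among inflammatory and other genes with a higher KO to WT ratio in skin it was 4.30 for Sgpp2, 4.20 for Cxcl1, 2.12 for Gjb6, 1.14 for Sprr1a, 2.46 for Nfkbiz, 1.90 for Zc3h12a, 2.45 for Slpi, 1.72 for Defb1, 2.95 for Dgat2l6, 2.60 for Bcl2l15, 2.21 for Ass1 and 1.92 for Slc2a1.

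Genes given above with the fibroblast and matrix genes had -7.38 for Dpt, -2.33 for Vim, -8.00 for Pi16, -5.92 for Serpinf1, -5.86 for Clec3b, -6.40 for Ogn, -6.61 for Islr, -7.28 for Scara5, -7.65 for Emilin2, -4.87 for Adamts5 and -2.38 for Mmp2. Vessel, fat and nerve genes gave -7.34 for Tek, -3.91 for Eng, -5.32 for Cd36, -4.46 for Plin4, -2.52 for Cnp and -2.21 for Prx. Muscle genes gave -5.71 for Myh4, -5.33 for Neb and -7.85 for Csrp3. Myeloid genes gave -6.41 for C1qb, -5.98 for Lyz2, -3.63 for Ccr1, -6.20 for Ccr2, -3.37 for Ms4a6d, -3.27 for Cxcr2, -5.25 for Hdc and -7.21 for Retnla. Interferon, lymphocyte and epidermal immune cell genes gave -3.91 for Gbp3, -2.80 for Gbp4, -6.37 for Rsad2, -1.51 for Ifi27l2a, -2.38 for Cd226, -3.08 for Il2ra, 1.34 for Tnfrsf18, -3.35 for Cd1d1 and -1.60 for Mfge8. Globin, mitochondrial and glucose genes gave -6.40 for Hbb-bs, -7.05 for Hbb-bt, -2.66 for mt-Nd2, -2.44 for mt-Atp6 and -2.75 for Hk2. The eosinophil attractant and the endonuclease family member gave -6.57 for Ccl11 and -4.25 for Eepd1. Genes highest within epidermis in Epidermis KO 2 gave -9.49 for Ceacam1, -11.28 for Amy1, -7.99 for Aqp4, -7.49 for Mgat3, -7.29 for Pllp, -7.20 for Osr2 and -9.88 for Enpp3.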

How the results depend on the processing

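No named gene reversed its sign under the 27 alternatives. Of 100 named genes with a called difference, 61 kept the call in every alternative that gave a result for them, and 10 lost it without at least 1 library. Rsad2, Tek, mt-Nd2 and mt-Atp6, among the 61, had a result in 26 of the 27. Without 1 library the called differences ran from 1393 to 3940, the skin effects from 6193 to 7773, the epidermis effects from 6006 to 8144 and the opposite changes from 248 to 510. With a minimum 2-fold effect in the test they numbered 469, 2240, 1760 and 33, since that test asks for more. With the Y-linked share as covariate opposite changes numbered 174, and the cause was not tested. DESeq2 called 3422 differences, limma-voom 1995, RLE scaling 2508, a robust fit 2561 and no filter on low counts 2150.

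With the replicate number as a block in skin alone, the paired fit chosen after seeing the data, 2477 differences were called. Among the named genes this block ended the calls of Krtap3-2 and Slpi and no other. Blocks that the pairing check does not bear out gave 2152 over all groups, 2194 within tissue and 1271 within genotype.

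At this depth 3 counts are 0.179 to 0.246 CPM in a library, and in simulated data 22% of 2-fold differences were recovered, so a difference of that size that was not called may still be present. Of the genes with a called difference, 320 were at or under 1 CPM in both epidermis groups and 25 in both skin groups.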

Other observations

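Genes that changed in the same direction in both tissues with a called difference, by which tissue changed more, were as follows. Of 213 that rose in both, the rise was larger in skin for 100 and larger in epidermis for 113, and of 126 that fell in both, the fall was larger in skin for 49 and in epidermis for 77. In all, 1932 genes rose in both tissues and 2052 fell in both, with or without a called difference.

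The difference was also computed on the linear scale, as the change in mean CPM in skin minus that in epidermis. The sign was the same for 2503 of the 2539 called genes and the other for 36, of which 29 changed in the same direction in both tissues and 7 in epidermis alone. None of the 383 genes with opposite changes was among them.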
